A study of Mus musculus with 2 samples.

Results

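Hemoglobin-rich barcodes were the droplet barcodes in which UMIs (unique molecular identifiers, each standing for 1 captured RNA molecule) of Hbb-bs, Hbb-bt, Hba-a1 and Hba-a2 made up at least 20% of all UMIs. Every deposited barcode was considered, with no filter on depth, genes or mitochondrial share. The rule found 165 of 10000 barcodes, 116 of 4731 in the yap1 library and 49 of 5269 in the wild-type library. The barcodes were chosen by this measured hemoglobin share, so the share is given here only as a description, with no test.

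RNA was counted per cell in liver nonparenchymal cells, the cells left in the supernatant after a slow spin that pellets hepatocytes. The yap1 library came from C57BL/6 mice with floxed Yap1 and Lyz2-Cre, and the wild-type library from wild-type C57BL/6 mice. Both groups had received carbon tetrachloride 4 times, a hepatotoxin used as a model of liver fibrosis, so neither library shows an untreated liver. Each library was 1 sample taken from 3 mice, with values per mouse not analysed here. Ages were not among the sources used here. Lyz2-Cre acts in myeloid cells, since Lyz2 encodes the lysozyme of macrophages and granulocytes, and erythroid cells are not its target. With 1 library per genotype no test was possible, and genotype cannot be told apart from library, handling or mouse pool. All intervals are exact 95% intervals that cover counting error only. The libraries held 34234353 UMIs (yap1) and 30386545 UMIs (wild type), at medians of 4707 and 3860 UMIs per barcode. Both shared 5 barcodes, none of them hemoglobin-rich. Doublets were not removed. Yap1 was counted with 106 UMIs in all yap1 barcodes and 147 in all wild-type barcodes. In barcodes led by Kupffer cell, monocyte or neutrophil markers, Yap1 had 4 UMIs in yap1 and 3 in wild type, too few to check the deletion. In hemoglobin-rich barcodes Yap1 had 0 UMIs in each library. Summed over all of these barcodes, a count of 0 allows up to 34.2 CPM in yap1 and 93.2 CPM in wild type. CPM stands throughout for UMIs per 1000000 non-hemoglobin UMIs, because hemoglobin fills most of the total of these barcodes.

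Red cells arise from nucleated precursors that condense and expel their nucleus, become reticulocytes that still hold messenger RNA, and then lose that RNA, their ribosomes and their mitochondria. Hemoglobin joins alpha globin and beta globin chains around heme, whose synthesis begins in these cells with the enzyme encoded by Alas2. In the mouse, Hba-a1 and Hba-a2 encode adult alpha globin, and Hbb-bs and Hbb-bt encode adult beta globin in strains such as C57BL/6. The adult liver is not a usual site of red cell formation, but its sinusoids carry blood.

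The proximal promoters of Hbb-bs, Hbb-bt and Hba-a1 are shown because the genes behind the rule were counted together. The printed sequences show how alike the regulatory regions of the beta pair are. That of Hba-a2 is not printed, and the likeness of the alpha pair is given below as a value. The sequences are RefSeq's for GRCm38.p6, 250 bases before each gene's start, read 5′ to 3′ on the gene's strand. Hbb-bs lies at chr7:103827929-103828178 on the minus strand, Hbb-bt at chr7:103813924-103814173 on the minus strand, and Hba-a1 at chr11:32283422-32283671 on the plus strand. Capitals mark each match, on either strand, to the word CACCC, the word CCAAT, the word TATAA or the word GATAA. GENCODE starts these gene models further upstream than RefSeq, inside the shown bases.
Hbb-bs: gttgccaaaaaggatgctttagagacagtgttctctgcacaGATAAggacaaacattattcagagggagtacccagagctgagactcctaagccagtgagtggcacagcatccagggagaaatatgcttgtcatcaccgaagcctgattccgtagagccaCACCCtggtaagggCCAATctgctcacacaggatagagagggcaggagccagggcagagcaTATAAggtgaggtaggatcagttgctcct
Hbb-bt: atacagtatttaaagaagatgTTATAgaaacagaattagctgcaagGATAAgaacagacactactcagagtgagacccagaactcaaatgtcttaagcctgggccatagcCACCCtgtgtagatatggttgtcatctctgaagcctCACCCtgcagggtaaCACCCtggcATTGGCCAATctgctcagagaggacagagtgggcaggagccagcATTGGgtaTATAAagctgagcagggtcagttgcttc
Hba-a1: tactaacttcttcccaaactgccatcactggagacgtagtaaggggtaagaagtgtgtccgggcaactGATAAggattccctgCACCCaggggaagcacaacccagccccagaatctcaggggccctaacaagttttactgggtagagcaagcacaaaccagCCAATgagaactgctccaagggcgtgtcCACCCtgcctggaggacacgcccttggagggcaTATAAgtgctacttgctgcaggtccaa
KLF1 is known to bind the CACCC word and GATA1 the GATAA word, while CCAAT boxes and TATAA boxes are general promoter elements. All 4 words were found in the promoter window of each of the 4 genes. Over the 300 bases of the window, Hbb-bs held 1 match to each word, and Hbb-bt held 3 matches to CACCC, 3 to CCAAT, 2 to TATAA and 1 to GATAA. Hba-a1 and Hba-a2 each held 2 matches to CACCC and 1 to each of the others. Among 32851 mouse promoter windows of the same length, 57.5% held CACCC, 37.4% CCAAT, 24.9% TATAA and 25.4% GATAA. A match is a description and not a binding site. The alpha pair shared an unbroken run of 297 bases of its 300-base windows, and the beta pair was identical at 226 of 311 aligned columns, or 72.7%.

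On mm10 the transcribed genes lie at chr7:103826534-103828096 for Hbb-bs and chr7:103812524-103813996 for Hbb-bt, both on the minus strand. Hba-a1 lies at chr11:32283511-32284465 and Hba-a2 at chr11:32296489-32297298, both on the plus strand. All are annotated as protein coding. Of the 50-base words in the last 500 bases of their transcripts, 91.1% of those of Hba-a1 and 88.3% of those of Hba-a2 also occurred in the other alpha gene. For Hbb-bs the share was 56.1% and for Hbb-bt 64.5%. Reads of a pair could therefore be split between its genes by the authors' counting, and values of single globin genes are uncertain to that extent.

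Hemoglobin-rich barcodes made up 2.45% of yap1 barcodes (interval 2.03 to 2.93%) and 0.930% of wild-type barcodes (0.689 to 1.23%). The ratio of the shares was 2.64 (1.87 to 3.76). These intervals count barcodes of 1 library each and test nothing between genotypes. These barcodes carried 437665 hemoglobin UMIs in yap1 and 136631 in wild type, 98.6% and 97.5% of all hemoglobin UMIs of their libraries. Hemoglobin amounted to 1.30% of all UMIs in the yap1 library and 0.461% in the wild-type library. How many red cells remained after the liver was dissociated was not recorded in the labels, so more red cells in the liver and more carried into the droplets cannot be told apart.

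The distribution had an almost empty middle. Of the barcodes above the threshold, 106 in yap1 and 44 in wild type held at least 80% hemoglobin, and 100 and 42 at least 90%. Only 3 yap1 and 2 wild-type barcodes fell between 50% and 80%, and 7 and 3 between 20% and 50%. Below the threshold, 3 yap1 and 4 wild-type barcodes held at least 1%. The lowest shares inside the rule were 21.9%, 22.5% and 27.1% in yap1 and 21.6%, 28.4% and 28.8% in wild type. The highest shares outside were 18.2%, 5.49% and 3.76% in yap1 and 18.7%, 12.8% and 4.03% in wild type. The rule thus cut a range of shares, and few barcodes lay near the cut. Median hemoglobin share was 95.6% in each library, up to 98.2% in yap1 and 98.6% in wild type.

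**Figure D1:**
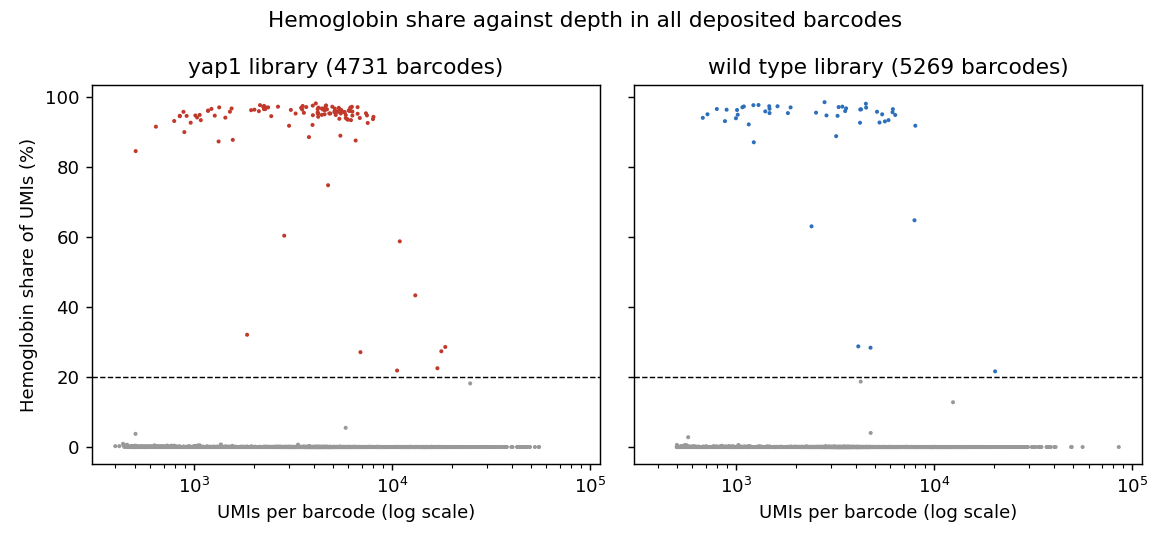
Hemoglobin share of UMIs (%) against UMIs per barcode (log scale) for every deposited barcode, yap1 left and wild type right. The dashed line is the threshold of 20%, coloured points are the 116 and 49 hemoglobin-rich barcodes and grey points all others. Most coloured points sit above 80%, and few points of either library lie between 1% and 80%.

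Hemoglobin-rich barcodes were poor in other RNA. They held a median of 4429.5 UMIs in yap1 (506 to 18510) and 2852 UMIs in wild type (677 to 20257), below the medians of their libraries. Of these, a median of 185 UMIs in yap1 and 112 in wild type were not hemoglobin. A median of 100 genes was detected in yap1 and 68 in wild type, against 1656 and 1460 genes in the other barcodes. Mitochondrial transcripts had a median share of 0.111% of UMIs in yap1 and 0.155% in wild type, against 4.43% and 4.74% in the other barcodes. Fewer than 200 genes were found in 102 of the yap1 and 42 of the wild-type barcodes. The common filter of 500 UMIs, 200 genes and at most 20% mitochondrial UMIs would keep only 13 and 6 of them.

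The nuclear RNA Malat1 was scarce in the barcodes with most hemoglobin. Among barcodes of at least 80% hemoglobin it had 19 UMIs in yap1, in 15 of 106 barcodes, and 5 UMIs in wild type, in 5 of 44 barcodes. No barcode of this range had more than 3 Malat1 UMIs in yap1 or 1 in wild type. In the 7 yap1 barcodes of 20% to 50% hemoglobin Malat1 had 624 UMIs, and in the 3 wild-type ones 332, at least 22 and 24 in each barcode. These were far deeper, at medians of 8257 and 3408 non-hemoglobin UMIs against 167.5 and 91.5 in the range of at least 80%, so raw counts are not comparable. Malat1 was at 959 CPM in yap1 and 795 CPM in wild type in that range. In barcodes outside the rule it was at 10850 and 11928 CPM. As a share of non-hemoglobin UMIs, mitochondrial transcripts were at 4.08% in yap1 and 4.23% in wild type in the range of at least 80%, near the 4.61% and 4.73% of the other barcodes. Ribosomal protein genes gave 9.81% of non-hemoglobin UMIs in yap1 and 7.87% in wild type in that range.

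The erythroid label was checked on genes the rule did not use. An erythroid core list without hemoglobin held 16 genes, 15 of them matched in the files; Ahsp is not analysed here. At least 1 UMI of the list was found in 106 of 116 yap1 barcodes (91.4%, 84.7 to 95.8%) and in 43 of 49 wild-type barcodes (87.8%, 75.2 to 95.4%). At least 2 of its genes were found in 78.4% of yap1 and 67.3% of wild-type barcodes. Among B cell-led barcodes outside the rule, which should lack these genes, at least 2 were found in 3 of 950 in yap1 (0.316%) and 0 of 1318 in wild type. A barcode led by the core list could not be in this set, so its low share is partly fixed by the labelling. The 3 wild-type B cell-led barcodes inside the rule held 4, 1 and 2 core genes. The median depth of B cell-led barcodes outside the rule was 4389.5 non-hemoglobin UMIs in yap1 and 3649 in wild type, far above that of the hemoglobin-rich ones. With each barcode thinned to 100 non-hemoglobin UMIs, at least 1 core UMI remained in 90.1% of yap1 and 92.0% of wild-type hemoglobin-rich barcodes, with 35 and 24 shallower ones left out. The same thinning left 0.211% of yap1 and 0.228% of wild-type B cell-led barcodes outside the rule with a core UMI. The markers fit the label in most of these barcodes.

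**Figure D2:**
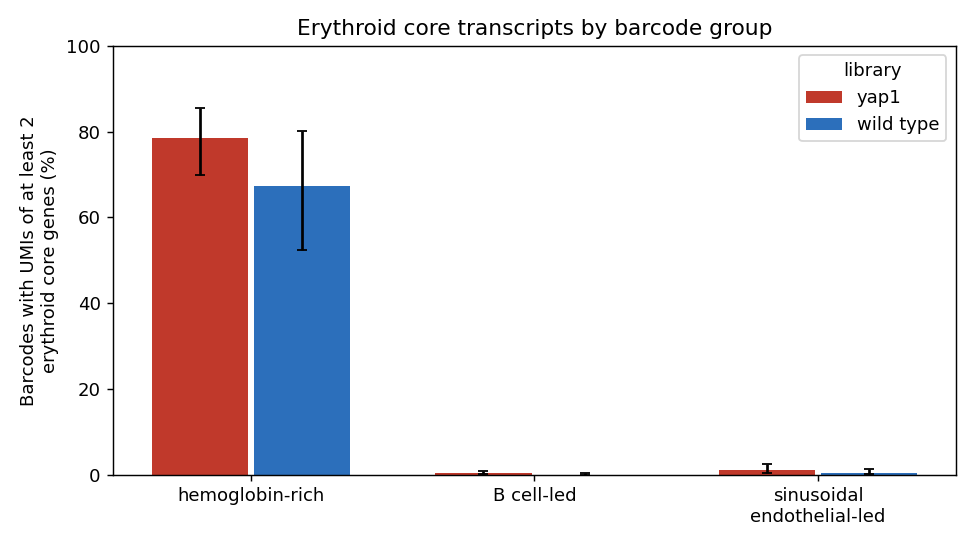
Percent of barcodes with UMIs of at least 2 erythroid core genes (hemoglobin not counted), yap1 left and wild type right in each pair. The groups are hemoglobin-rich barcodes and, outside the rule, barcodes led by B cell or sinusoidal endothelial markers. Bars are shares and whiskers exact 95% intervals, at 78.4% and 67.3% in hemoglobin-rich barcodes and under 1% in the others.

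Alas2, the first enzyme of heme synthesis in red cells (chrX:150547375-150570638, plus strand, mm10), was found in more of these barcodes than Bpgm or Slc4a1. It was counted with 893 UMIs in yap1, in 104 of 116 barcodes, and 288 UMIs in wild type, in 40 of 49 barcodes. Its level was 10180 CPM in yap1 and 8947 CPM in wild type, against 0.623 and 0.629 CPM in the other barcodes of each library. The other barcodes held only 21 Alas2 UMIs in yap1 and 19 in wild type. Bpgm makes 2,3-bisphosphoglycerate, which lowers the oxygen affinity of hemoglobin, and had 466 UMIs in 81 yap1 and 152 in 29 wild-type barcodes. Slc4a1, the anion exchanger band 3, had 37 UMIs in 20 yap1 barcodes and 32 in 6 wild-type ones, 17 of the wild-type UMIs in a single barcode.

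Several genes of early erythroid cells were at or near 0. Gata1, the master erythroid transcription factor, and Epor, the erythropoietin receptor, had 0 UMIs in each library. Klf1, which activates beta globin, had 0 UMIs in yap1 and 2 in wild type. Tfrc, the transferrin receptor, had 0 and 1, Kit 1 and 0, and the dividing-cell genes Mki67 1 and 1 and Top2a 0 and 0. Of the list of 11 early progenitor genes none reached 20 UMIs over both libraries, with 31 UMIs in all in yap1 and 10 in wild type. In barcodes of at least 80% hemoglobin that list held 14 UMIs in yap1, 0.0706% of non-hemoglobin UMIs, and 1 in wild type, 0.0159%, against 0.0269% and 0.0288% in the other barcodes. Of 16 erythroid transcription factor genes only Lmo2 and E2f2 reached 20 UMIs. In the range of at least 80% Lmo2, a partner of GATA1, was at 605 CPM in yap1 (12 UMIs) and 795 CPM in wild type (5 UMIs), against 124 and 122 CPM in the other barcodes. E2f2, which acts in the cell cycle, was there at 555 CPM in yap1 (11 UMIs) and 477 CPM in wild type (3 UMIs), against 16.2 and 16.3 CPM in the other barcodes. With 87721 non-hemoglobin UMIs in yap1 and 32189 in wild type, 0 UMIs leaves levels up to 34.2 and 93.2 CPM undetectable. Most of these UMIs lay in barcodes of under 80% hemoglobin. Barcodes of at least 80% held only 19820 in yap1 and 6288 in wild type. There the same 3 UMIs are 151 CPM in yap1 and 477 CPM in wild type, so the limit is higher in that range. The embryonic globins Hba-x, Hbb-y and Hbb-bh1 had 0 UMIs in each library. The theta-like alpha globins were present at a trace, Hbq1a with 11 UMIs in yap1 and 4 in wild type and Hbq1b with 8 and 1.

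Cell cycle genes gave 0.267% of non-hemoglobin UMIs in yap1 and 0.350% in wild type in barcodes of at least 80% hemoglobin. Ube2c, which hands ubiquitin to cyclins at the end of mitosis, gave 35 of the 53 UMIs of this list in yap1 and 12 of the 22 in wild type. It stood at 1766 CPM in yap1 and 1908 CPM in wild type in that range, against 32.4 and 41.5 CPM in the other barcodes.

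A small set of barcodes carried another cell type's transcripts beside hemoglobin, and they set most summed values. Each barcode was assigned to the marker list with the highest share of its non-hemoglobin UMIs relative to all barcodes, with at least 3 markers detected. The erythroid core led 75 yap1 and 26 wild-type barcodes, and no list led 33 and 20. Another cell type led 8 of 116 yap1 barcodes (6.90%, 3.02 to 13.1%) and 3 of 49 wild-type barcodes (6.12%, 1.28 to 16.9%). All 11 of these held under 80% hemoglobin. Barcodes of at least 80% held medians of only 167.5 non-hemoglobin UMIs in yap1 and 91.5 in wild type. With so few UMIs, 3 markers of another list were less easily detected there. At least 3 markers of another cell type, whichever list led, were found in 14 yap1 and 6 wild-type barcodes, of which 11 and 4 also had at least 3 erythroid core genes. Of the 8 yap1 barcodes led by another cell type, 2 were led by T cell, 2 by monocyte or macrophage and 2 by conventional dendritic cell markers. The others were led by NK cell or ILC1 markers (1) and by hepatocyte markers (1). All 3 wild-type barcodes led by another cell type were led by B cell markers.

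Individual barcodes of this kind held many markers. A yap1 barcode of 18510 UMIs, 28.6% of them hemoglobin, carried 140 UMIs of Lyz2, 95 of Plac8 and 70 of Chil3, all expressed by monocytes, next to 3 erythroid core genes. A yap1 barcode of 13061 UMIs and 43.4% hemoglobin carried the NK receptors Klre1 with 7 and Klrk1 with 6 UMIs beside 5 erythroid core genes. A yap1 barcode of 4739 UMIs and 74.8% hemoglobin held 12 hepatocyte markers, with 68 UMIs of Alb and 36 of Ttr, and 0 of Malat1. The deepest wild-type barcode, with 20257 UMIs and 21.6% hemoglobin, held 22 UMIs each of the B cell genes Cd79a and Ms4a1 and 13 of Cd79b. How these transcripts came to share a barcode was not tested.

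Between 50% and 80% hemoglobin, 4 of 5 barcodes were led by the erythroid core. The 3 yap1 barcodes of this range also held 32 UMIs of the B cell list, and the 2 wild-type ones 25. These were 0.470% of non-hemoglobin UMIs in yap1 and 0.680% in wild type, against 0.122% and 0.159% in barcodes outside the rule. Both wild-type barcodes were led by the core, so such a lead did not exclude transcripts of another list. The wild-type barcode of 2397 UMIs and 63.1% hemoglobin held 11 erythroid core genes, the most of any barcode, with 17 UMIs of Slc4a1, 13 of Car2 and 12 of Alas2. It also had 34 UMIs of Malat1 and 1 of Mki67. A yap1 barcode of 10902 UMIs and 58.8% hemoglobin had 15 UMIs of Bpgm, 10 of Alas2 and 64 of Malat1. Another yap1 barcode of 2846 UMIs and 60.4% hemoglobin had 24.8% mitochondrial UMIs.

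**Figure D3:**
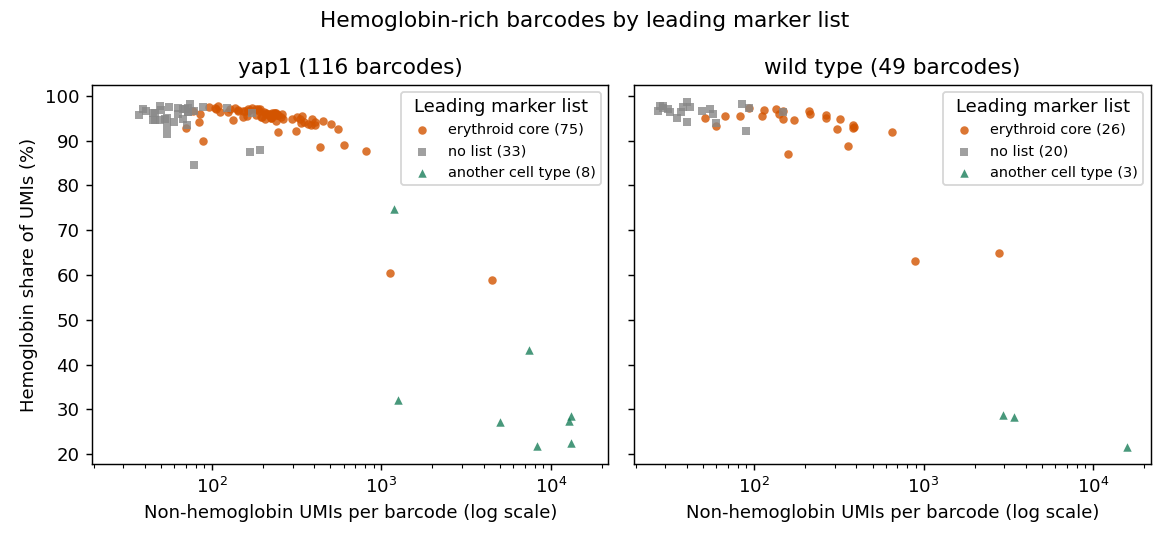
Hemoglobin share of UMIs (%) against non-hemoglobin UMIs per barcode (log scale) for the hemoglobin-rich barcodes, yap1 left and wild type right. Colour and shape give the leading marker list: erythroid core (75 and 26), no list (33 and 20) or another cell type (8 and 3). Barcodes led by another cell type sit below 80% hemoglobin, with 1193 or more other UMIs in yap1 and 2940 or more in wild type.

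The weight of these few barcodes was large. The 7 yap1 and 3 wild-type barcodes of 20% to 50% hemoglobin held 69.6% and 69.0% of all non-hemoglobin UMIs of the hemoglobin-rich barcodes. Those of 50% to 80% held 7.77% and 11.4%, which left 22.6% in yap1 and 19.5% in wild type to the barcodes of at least 80%. In that last range the erythroid core made up 9.79% of non-hemoglobin UMIs in yap1 and 9.56% in wild type, against 0.213% and 0.166% in the range of 20% to 50%. Levels are therefore given below for the 106 yap1 and 44 wild-type barcodes of at least 80% too, a range chosen after the data were seen.

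The 4 globin genes shared the hemoglobin UMIs in much the same proportions in each library. Hbb-bs took 51.8% in yap1 and 49.8% in wild type, Hbb-bt 10.8% and 11.1%, Hba-a1 21.5% and 21.7%, and Hba-a2 15.9% and 17.5%. Alpha globin amounted to 37.4% of hemoglobin UMIs in yap1 (37.2 to 37.5%) and 39.1% in wild type (38.9 to 39.4%). Hba-a2 made up 42.5% of alpha globin UMIs in yap1 and 44.7% in wild type. The intervals are narrow because they rest on 437665 and 136631 UMIs, and they hold no spread between mice.

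Single barcodes differed far more in the beta globin split than the libraries did. Hbb-bt ran between 1.01% and 24.4% of a barcode's beta globin UMIs in yap1, with a median of 17.1%, and between 0.781% and 26.6% in wild type, with a median of 18.8%. The share moved with depth. Among barcodes of at least 80% hemoglobin with under 2000 UMIs, it was 5.43% in yap1 (24 barcodes) and 7.44% in wild type (21 barcodes). Between 2000 and 4000 UMIs it was 14.7% in yap1 (23 barcodes) and 17.5% in wild type (9 barcodes). At 4000 UMIs and over it was 18.5% in yap1 (59 barcodes) and 21.1% in wild type (14 barcodes). In each depth band the yap1 value was the lower one, by less than the spread between single barcodes, which ran from 3.30% to 22.6% in the 23 yap1 barcodes of 2000 to 4000 UMIs. The bands were chosen after the data were seen.

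Other features moved with depth as well. Alpha globin took 40.7% of hemoglobin UMIs in yap1 and 42.4% in wild type under 2000 UMIs, and 36.8% and 38.2% at 4000 UMIs and over. The erythroid core made up 3.20% of non-hemoglobin UMIs in yap1 (2.40 to 4.17%) and 4.92% in wild type (3.72 to 6.37%) under 2000 UMIs. Between 2000 and 4000 UMIs it made up 9.99% and 8.73%. Alas2 was found in 13 of 24 yap1 and 13 of 21 wild-type barcodes under 2000 UMIs, and in all 59 yap1 barcodes of 4000 UMIs and over. What sets apart the shallow barcodes was not tested. In barcodes outside the rule with under 1% hemoglobin, Hbb-bt made up 16.7% of beta globin UMIs in yap1 (14.4 to 19.3%) and 19.2% in wild type (16.2 to 22.5%). Over all barcodes outside the rule it made up 18.0% in yap1 (16.8 to 19.2%) and 8.97% in wild type (7.85 to 10.2%), so that wild type was the lower one. The sets differ only by the 3 yap1 and 4 wild-type barcodes of at least 1%.

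**Figure D4:**
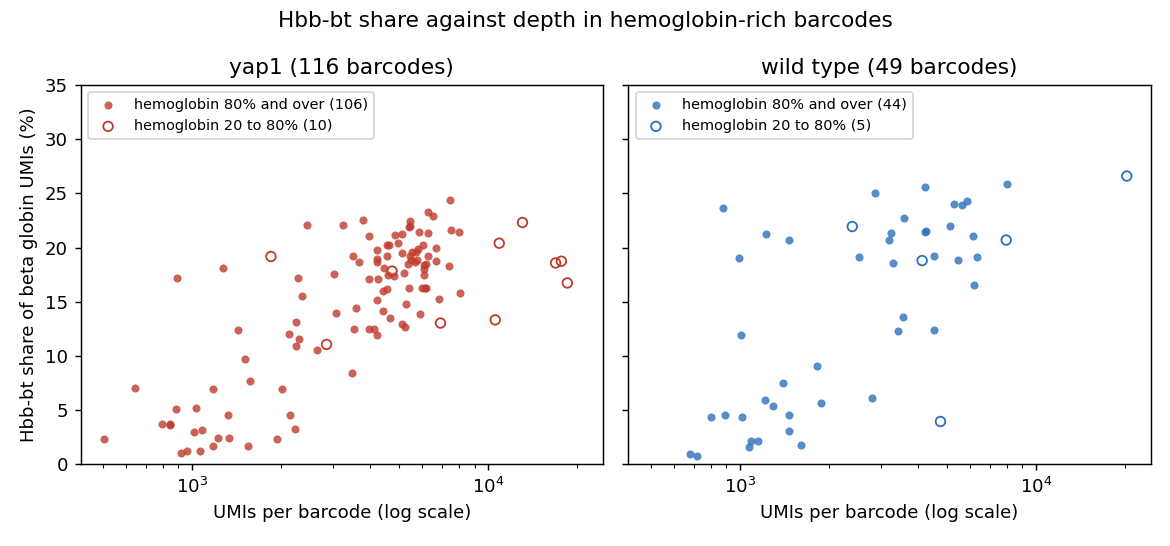
Hbb-bt share of beta globin UMIs (%) against UMIs per barcode (log scale), yap1 left and wild type right. Filled points hold at least 80% hemoglobin (106 and 44 barcodes) and open points 20 to 80% (10 and 5). Most barcodes under 2000 UMIs lie below 10%, and the filled points of 4000 UMIs and over run from 11.9% to 24.4% in yap1 and from 12.4% to 25.9% in wild type.

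The excess of hemoglobin-rich barcodes in yap1 was uneven over depth. Barcodes of at least 80% hemoglobin and under 2000 UMIs made up 0.507% of yap1 and 0.399% of wild-type barcodes, a ratio of 1.27 (0.679 to 2.40). Those of 4000 UMIs and over made up 1.25% of yap1 and 0.266% of wild-type barcodes, a ratio of 4.69 (2.59 to 9.10). The yap1 library was the deeper one at the median, with 4707 UMIs per barcode against 3860 in wild type, and the part of depth in these ratios was not tested.

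Over all hemoglobin-rich barcodes, 782 non-hemoglobin genes had at least 20 UMIs over both libraries. Of these, 193 (24.7%) were at least 2-fold higher in yap1 and 96 (12.3%) at least 2-fold lower, at a median log2 ratio of 0.11. Among barcodes of at least 80% hemoglobin 184 genes reached 20 UMIs, with 28 (15.2%) higher and 8 (4.35%) lower and a median of 0.13. Against the other barcodes of the same library, 15.5% of 779 genes were at least 2-fold higher in yap1 and 18.1% of 777 in wild type.

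In barcodes of at least 80% hemoglobin, genes of heme synthesis and of the red cell skeleton summed to ratios near 1. Of 6 erythroid core genes measured in the range of at least 80%, none was past 2-fold in either direction. Their list summed to a yap1 over wild type ratio of 1.02 (0.935 to 1.12). Heme synthesis, with 5 measured genes, gave 6.09% of non-hemoglobin UMIs in each library, with an interval of the ratio of 0.891 to 1.12. Membrane and skeleton, with 4, summed to 1.03 (0.825 to 1.30). Alas2 is in both the core and the heme list, so these sums overlap. In this range it gave 816 of the 1207 heme list UMIs in yap1 and 248 of 383 in wild type. Of the core list UMIs it gave 816 of 1941 in yap1 and 248 of 601 in wild type. Over all hemoglobin-rich barcodes the ratio was 1.06 (0.978 to 1.16) for the core list and 1.05 (0.946 to 1.17) for heme synthesis, but 0.779 (0.656 to 0.928) for membrane and skeleton. There 2 of 6 measured genes of that list were past 2-fold lower, Slc4a1 at 0.42 (0.257 to 0.704) and Tmcc2, chosen after its values were seen, with 5 UMIs in yap1 and 23 in wild type, 20 of these in 1 barcode.

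Alas2 averaged 41170 CPM in yap1 and 39440 CPM in wild type in this range, a ratio of 1.04 (0.904 to 1.21). Bpgm was at 20737 CPM in yap1 and 19720 CPM in wild type, a ratio of 1.05 (0.858 to 1.30). Fech inserts iron into the porphyrin ring and was at 7366 CPM in yap1 and 7156 in wild type, with 146 and 45 UMIs. Slc25a37, or mitoferrin 1, brings iron into the mitochondrion and was at 6963 and 7156 CPM, with 138 and 45 UMIs. Epb41, which ties spectrin to the membrane, was at 10393 and 9383 CPM. For none of these did the interval of the ratio lie clear of 1.

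Glrx5, a mitochondrial glutaredoxin of iron-sulfur cluster assembly, was the one heme list gene past 2-fold. It had 29 UMIs in 20 of 106 yap1 barcodes and 22 UMIs in 8 of 44 wild-type barcodes, or 1463 and 3499 CPM, a ratio of 0.42 (0.232 to 0.764). It was also lower within barcodes of 4000 UMIs and over, at 0.39 (0.197 to 0.777). In the other barcodes of the libraries Glrx5 stood at 51.1 CPM in yap1 and 54.6 CPM in wild type. Car2, the carbonic anhydrase that hydrates carbon dioxide in red cells, had 66 UMIs in 17 yap1 barcodes and 36 in 8 wild-type barcodes, a ratio of 0.58 (0.382 to 0.899). Of the wild-type Car2 UMIs, 22 came from 1 barcode, so the value rests largely on it.

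Genes of late maturation, when organelles and proteins are cleared, gave 11.6% of non-hemoglobin UMIs in yap1 and 10.7% in wild type in the range of at least 80%. Over all hemoglobin-rich barcodes the 13 measured genes of this list were at least 2-fold above the other barcodes in each library, where 15.5% of all genes tested were in yap1 and 18.1% in wild type. Genes were measured on their UMIs in the hemoglobin-rich barcodes, so this count is no support for the list. Between the libraries, in the range of at least 80%, none of 13 measured genes was past 2-fold higher and 1, Trim10, past 2-fold lower, with 12 UMIs in yap1 and 8 in wild type. Bnip3l, the receptor by which reticulocytes clear mitochondria, was at 11756 CPM in yap1 and 10337 CPM in wild type, a ratio of 1.14 (0.860 to 1.52). Of its end words 31.0% occur in a pseudogene. Fam46c was at 15994 CPM in yap1 and 17653 in wild type, and the ubiquitin ligase Mkrn1 at 21493 and 24491. Ubb, a polyubiquitin gene, was at 30172 CPM in yap1 and 21947 in wild type, a ratio of 1.37 (1.14 to 1.67). Of its end words 73.7% occur in other genes, and 48 of its yap1 and 31 of its wild-type UMIs came from 1 barcode each. Ube2l6, an enzyme that conjugates the ubiquitin-like protein ISG15, was at 20636 and 16380 CPM, a ratio of 1.26 (1.01 to 1.58).

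Red cell enzymes and redox genes did not move one way in the range of at least 80%. The list summed to a ratio of 1.11 (0.971 to 1.27) over 6 measured genes, none past 2-fold. Gpx1, a glutathione peroxidase, was at 14379 CPM in yap1 and 10496 in wild type, a ratio of 1.37 (1.04 to 1.82). Prdx2, the peroxiredoxin of red cells, was at 5550 and 4294 CPM, a ratio of 1.29 (0.842 to 2.05). Cat, or catalase, had 71 UMIs in 40 yap1 barcodes and 13 in 7 wild-type barcodes, a ratio of 1.73 (0.951 to 3.41). Bpgm, given above, was at 1.05 and Blvrb, a biliverdin reductase, at 0.93 (0.508 to 1.80). The intervals of Gpx1, above 1, and of Car2, below 1 at 0.58, lay clear of 1. Within barcodes of 4000 UMIs and over that of Gpx1 did not, at 1.23 (0.910 to 1.69).

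**Figure D5:**
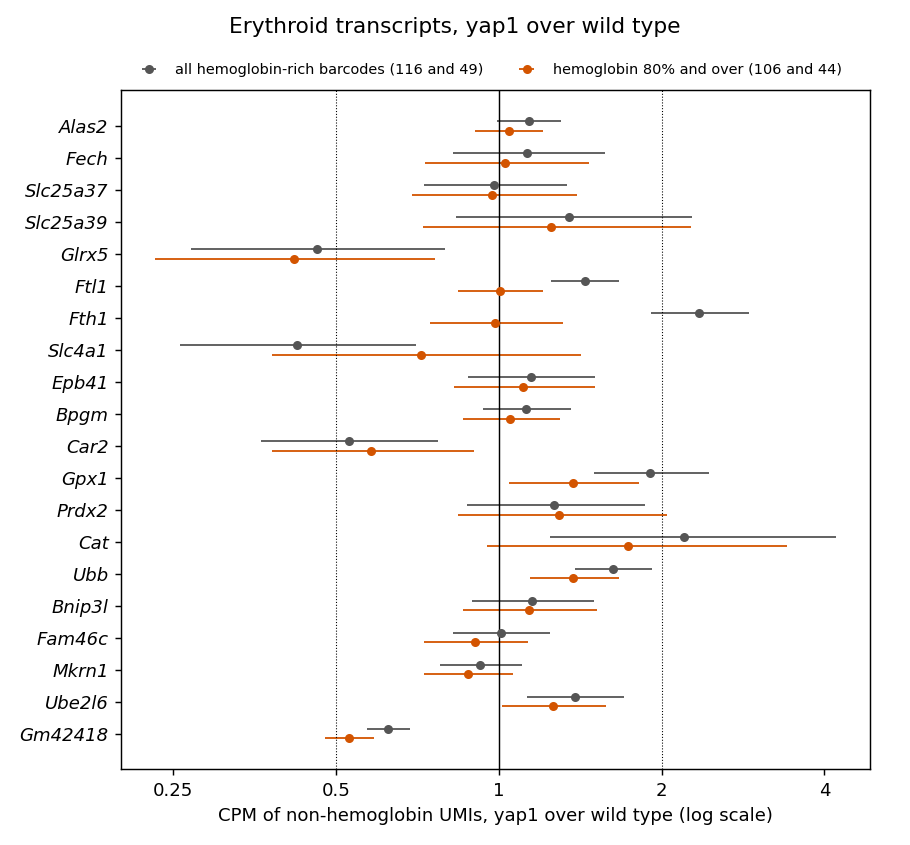
Ratio of CPM of non-hemoglobin UMIs, yap1 over wild type (log scale), for erythroid genes and Gm42418, in all hemoglobin-rich barcodes (grey) and in those of at least 80% hemoglobin (orange). Points are ratios and bars exact 95% counting intervals; the dotted lines mark 2-fold. Alas2 and Bpgm lie near 1, Glrx5 and Gm42418 below it, and Fth1 moves to 2.35 when the mixed barcodes are included.

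Iron storage genes gave other ratios over all hemoglobin-rich barcodes than in those of at least 80%. Fth1, the ferritin heavy chain, had a ratio of 2.35 (1.91 to 2.91) over all hemoglobin-rich barcodes, with 678 UMIs in yap1 and 106 in wild type, 310 of the yap1 UMIs in 1 barcode. In barcodes of at least 80% hemoglobin it was at 10646 CPM in yap1 and 10814 CPM in wild type, a ratio of 0.98 (0.746 to 1.31). Ftl1, the light chain, had a ratio of 1.44 (1.25 to 1.67) over all and 1.01 (0.840 to 1.21) in the range of at least 80%, and 74.0% of its end words are shared with other genes. Slc48a1, a heme transporter, was past 2-fold there, with 30 UMIs in 27 yap1 barcodes and 3 in 3 wild-type barcodes, a ratio of 3.17 (0.987 to 16.2).

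Genes furthest apart over all hemoglobin-rich barcodes often rested on 1 barcode. The 10 highest in yap1 were Ccl5, Chil3, Cst3, Ifitm3, Lgals3, Ly6c2, Lst1, S100a4, Tyrobp and Wfdc17, genes of T, NK and myeloid cells. Ccl5 had 133 UMIs in yap1, 123 of them in 1 barcode, and 0 in wild type, and none in the barcodes of at least 80% hemoglobin. Chil3 had 72 UMIs in yap1, 70 of them in 1 barcode, and 1 in wild type. Lyz2 had 231 UMIs in yap1 and 11 in wild type, but 10 and 8 in the range of at least 80%. The 10 lowest were Cd79a, Hsp90ab1, Crip1, Eif5a, H2-Aa, H2-Eb1, Cd74, Ppia, Ptma and Sub1. Cd79a, part of the B cell receptor, had 11 UMIs in yap1 and 47 in wild type, and Crip1 had 108 in yap1 and 109 in wild type, 108 of these in 1 barcode. Over all hemoglobin-rich barcodes, 24.7% of all genes tested were past 2-fold higher and 12.3% lower. The immediate early list had 9 of 13 measured genes higher and 1 lower there, and the class I and interferon list 7 of 9 higher. In the range of at least 80%, where 15.2% of all genes tested were higher, these lists had 1 of 2 and 2 of 3 higher. The 1 was Jund, and the 2 were B2m and Ifitm3, each with 19 UMIs in yap1 and 3 in wild type. B2m and Ifitm3 each lay just past the cut at 2.01, with an interval of 0.591 to 10.6 that included 1. Of 8 measured heat shock genes 2 were past 2-fold higher and 2 lower over all, and none reached 20 UMIs in the range of at least 80%. Among YAP and TEAD target genes only Gadd45b was measured, with 19 UMIs in yap1, 14 of them in 1 barcode, and 3 in wild type.

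Within barcodes of at least 80% hemoglobin, other genes stood apart, chosen here after their values were seen. Sec61g, a subunit of the channel for secreted proteins, had 292 UMIs in 84 of 106 yap1 barcodes and 41 UMIs in 19 of 44 wild-type barcodes. Its level was 14733 CPM in yap1 and 6520 CPM in wild type, a ratio of 2.26 (1.63 to 3.21), and 2.40 (1.58 to 3.78) within barcodes of 4000 UMIs and over. In the other barcodes it stood at 398 CPM in yap1 and 280 CPM in wild type. Eif1, a translation initiation factor, had 136 UMIs in yap1 and 18 in wild type, a ratio of 2.40 (1.46 to 4.17), against 1579 and 1598 CPM in the other barcodes. Jund, a subunit of AP-1, had 52 UMIs in 30 yap1 barcodes and 5 in 3 wild-type barcodes, a ratio of 3.30 (1.33 to 10.6). Psme3, a proteasome activator, had 48 UMIs in yap1 and 4 in wild type, a ratio of 3.81 (1.39 to 14.5).

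Ribosomal protein genes made up 10 of the 28 genes past 2-fold higher and 2 of the 8 past 2-fold lower, of 48 ribosomal protein genes measured in that range. These are 20.8% and 4.17% of the 48, near the 15.2% and 4.35% of all genes tested there. Rps29 had 79 UMIs in 44 yap1 barcodes and 5 in 4 wild-type barcodes, a ratio of 5.01 (2.06 to 15.9). In the other barcodes Rps29 was at 4800 CPM in yap1 and 2337 CPM in wild type, so the libraries differed in this gene outside the red cells too. Gm42418, a predicted gene known to overlap a ribosomal RNA repeat, went the other way. It had 953 UMIs in 105 yap1 barcodes and 571 in 43 wild-type barcodes, or 48083 and 90808 CPM, a ratio of 0.53 (0.477 to 0.588). In the other barcodes it stood at 2912 CPM in yap1 and 5013 CPM in wild type, lower in yap1 there as well.

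Hemoglobin UMIs were thinly spread outside the rule. The other barcodes held 6216 hemoglobin UMIs in yap1 and 3521 in wild type, and at least 1 such UMI was found in 23.0% of yap1 and 15.2% of wild-type barcodes. Among B cell-led barcodes hemoglobin made up 0.554 per 10000 UMIs in yap1 and 0.430 in wild type, and among Kupffer-led barcodes 0.319 and 0.244. In some classes 1 barcode set most of the value. Monocyte-led yap1 barcodes were at 4.16 per 10000, and at 0.285 without a barcode of 4494 hemoglobin UMIs that lay at 18.2%, just outside the rule. Neutrophil-led wild-type barcodes were at 5.28, and at 0.355 without a barcode of 794. Mesenchymal-led wild-type barcodes were at 64.4 over 27 barcodes, and at 0.255 without a barcode of 1589. Endothelial-led barcodes were at 3.70 in yap1 and 1.52 in wild type, and at 0.965 and 0.408 without the highest of each. Hepatocyte-led barcodes were at 0.995 in yap1 and 0.684 in wild type, and at 0.886 and 0.638 without the highest.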

How the data were processed

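Barcoded RNA of nonparenchymal liver cells was counted in 1 yap1 and 1 wild-type library. The deposited files hold whole-number UMI counts per gene and barcode, per the file headers, not normalized, with 27998 gene IDs, of which 27645 were found in GENCODE M21. The submitters' processing notes name mm10, Bowtie 0.12.2 and Seurat, without roles. The counting program, use of strand and barcode selection are not given in the sources used here. Reads from overlapping genes on opposite strands cannot be told apart.

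Hemoglobin-rich barcodes were taken by the 20% rule. UMIs were summed per library and scaled to 1000000 non-hemoglobin UMIs. Ratios are yap1 over wild type with conditional binomial intervals, shares carry Clopper-Pearson and levels Poisson intervals. A gene was called past 2-fold with at least 20 UMIs over both libraries. There are no p-values. A count of 0 was read as allowing 3 UMIs. Named genes are the 15 with most UMIs in these barcodes, up to 5 per list, the 10 highest and 10 lowest ratios, ranked on whichever interval bound lay closer to 1 among genes of 50 or more UMIs (mitochondrial, ribosomal, immunoglobulin and predicted genes left out), Yap1, Lyz2, Wwtr1, Drd2 and leading markers of other cell types. The members, lists and rules were chosen with earlier results of these data known. The ratios and intervals were tested on simulated counts. Intervals came from scipy 1.17.1, sums from numpy 2.4.6 and pandas 2.3.3, and figures from matplotlib 3.10.9, under Python 3.11.15. Other thresholds, scalings, weights, thinning and barcode sets were tried; the threshold of 80% and the depth bands were added after the data were seen.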

Additional observations from a re-analysis of the deposited data

How the results depend on the processing

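The ratio of shares of hemoglobin-rich barcodes lay between 2.41 and 2.68 at thresholds of 10%, 50% and 80% hemoglobin and under the filter on depth, genes and mitochondrial share. At least 80% hemoglobin was held by 106 of the 116 yap1 and 44 of the 49 wild-type barcodes. The thresholds therefore took mostly the same barcodes, and the narrow range is no separate support. Under the filter the ratio rests on 13 yap1 and 6 wild-type barcodes. That filter left 0.275% of yap1 and 0.114% of wild-type barcodes, with medians of 7513 and 6779 UMIs, 1392 and 805 genes and 1.84% and 1.49% mitochondrial UMIs. It moved Hbb-bt to 19.1% and 23.5% of beta globin and alpha globin to 37.9% and 39.6% of hemoglobin UMIs, core detection to 100% in each, the share led by another cell type to 61.5% and 33.3%, and the core list's median log2 ratio to -0.82, against 0.18. That median was 0.39 at a threshold of 10%, 0.33 with barcodes weighted equally and -0.029 in barcodes of at least 80% hemoglobin with 4000 UMIs and over. The share led by another cell type was 0.917% in yap1 and 0 in wild type at 50%, and 0 and 0 at 80%, where wild-type Hbb-bt was at 17.8%. With equal weights Hbb-bt was at 14.7% and 14.4%, so that yap1 was no longer the lower one, and alpha globin at 38.1% and 40.6%. In the depth bands under 2000, 2000 to 4000 and 4000 UMIs and over, Hbb-bt was at 5.43%, 14.7% and 18.5% in yap1 and 7.44%, 17.5% and 21.1% in wild type, and alpha globin at 40.7%, 38.6% and 36.8% in yap1 and 42.4%, 38.1% and 38.2% in wild type.

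Counts of genes past 2-fold, higher and lower, were 193 and 96 over all hemoglobin-rich barcodes. They were 31 and 19 at a threshold of 50%, 28 and 8 at 80%, 20 and 11 in the deepest band, 12 and 4 with thinning, 67 and 24 at 50 UMIs per gene and 3977 and 2214 with no minimum. They were 27 and 17 without barcodes led by another cell type and 79 and 32 without the 5 of each library with most other UMIs. Equal weights gave 282 and 160, and scaling by all UMIs 162 and 122. The higher genes were 66.8% of those called, 77.8% at a threshold of 80% and 57.0% with scaling by all UMIs. Scaling by all UMIs set the median log2 ratio of all genes at -0.08, against 0.11.

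Of the other values under an alternative, 606 kept within their counting interval, 190 moved and 26 were counted as crossing 1 or, for a list, 0. Crossings were counted only for genes past 2-fold, or lists with a median log2 ratio at least 1 from 0, over all hemoglobin-rich barcodes. Crossings of other genes and lists stand among the kept or moved values. Actb, for example, went from 1.93 to 0.934 at 80%, and the heme synthesis list from 0.073 to -0.86 under the filter. At 10% the counted crossings were Fth1 (0.728) and Wfdc17 (0.783), and at 50% Ppia (1.12) and Ptma (1.06). At 80% they were Alb (0.725), Fth1 (0.984), Ptma (1.27) and Tmsb4x (0.935). With equal weights they were B2m (0.901), Cd3g (0.177), Chil3 (0.468), Crip1 (1.48), Hsp90ab1 (1.25), Ifi27l2a (0.720), Ly6c2 (0.217), Lyz2 (0.561), Tmsb4x (0.879) and the class I and interferon list (-0.10). Without barcodes led by another cell type they were Alb (0.895) and Ptma (1.08). Without the 5 with most other UMIs they were Cd74 (3.87), Fth1 (0.685), H2-Eb1 (2.39), Hsp90ab1 (1.08), Ppia (2.10) and Ptma (1.72). The cause was not tested.

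No paired analysis was possible because each genotype has 1 library, and none can be left out. Most hemoglobin-rich barcodes hold few other UMIs, which limits comparisons to genes with at least 20 UMIs. Doublets were not removed, and mice were pooled.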
